A study of Mus musculus with 18 samples.

Results

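Filamins, alpha-actinins and synaptopodins are proteins that tie actin filaments together or sit on the bundles so formed. The 7 genes described here were Flna and Flnc (filamins A and C), Actn1 and Actn4 (the 2 alpha-actinins of non-muscle cells), Synpo and Synpo2l (synaptopodin and a relative), and Fblim1 (migfilin, a filamin-binding adaptor). They were taken by symbol from the 46078 genes of the count table, and all 7 were among the 13438 protein-coding genes with enough counts to be tested. The choice of genes was made with the soft against stiff differences of these libraries known, so those differences, and the counts of members past a threshold in them, are given as a description and not as a test. The comparisons of adhesiveness within each stiffness, and averaged over both, were tested.

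The cells were E14 mouse embryonic stem cells (mESCs), an established line labelled 129m wt, and all of them were grown for 24 h in serum+LIF on StemBond hydrogels. These are polyacrylamide gels whose co-factor AHA (6-acrylamidohexanoic acid) anchors matrix protein to the surface, here fibronectin in every group. Soft gels (about 750 Pa) and stiff gels (about 160 kPa) were each made with 3 AHA concentrations, 16 mM (low), 48 mM (mid) and 80 mM (high), which gave 6 groups of 3 RNA-seq libraries. As all libraries came from a single line and nothing in the labels ties a library to a separate culture, p-values measure only the spread between these libraries, which may be technical.

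Filamins are long, flexible dimers that join actin filaments at wide angles and bind the cytoplasmic tails of integrins, so that they connect the matrix receptors to the cortex. Alpha-actinins are short rod-shaped dimers that hold filaments in antiparallel bundles such as stress fibres, where they also bind vinculin and zyxin. Synaptopodin-family proteins bind alpha-actinin on those bundles, and migfilin bridges filamin and focal adhesions.

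Counts in genes ranged from 5850621 to 9290261 per library. In 17 libraries the spike-in (ERCC) share was between 0.607% and 0.725%, and in the library soft, high AHA, replicate 1 it was 1.37%. The study discarded samples with a high spike-in share, and that library was left out of the fit here, leaving 8 soft and 9 stiff libraries; its values are given beside the results they touch. Levels are given in CPM, the count of a gene scaled to the size of its library. Markers of pluripotent cells (6 listed) summed to between 2310 and 2479 CPM on soft and between 2085 and 2184 on stiff gels, and 5 of the 6 were called higher on soft gels. A list of 7 fibroblast markers summed to 115 to 197 on soft and 166 to 235 on stiff gels. Most of this sum was Col1a1 (mean 109.1 on soft and 154.5 on stiff), the 1 of 5 tested genes called lower on soft. Lum and Dcn had at most 2 and 4 counts in any library. A list of 11 muscle markers summed to 261 to 306 on soft and 249 to 348 on stiff gels, mostly from Ttn (mean 202.6 and 204.6). Of 8 tested genes 1 was called lower (Lmod1), and Myod1 and Myog had at most 5 and 4 counts. None of 5 tested primitive endoderm and 3 tested mesoderm markers was called; their sums were 12.8 to 19.2 and 15.2 to 30.9 CPM over the 17 libraries. The part of these cell types in the results was not tested. In bulk libraries, fewer cells of a type and less RNA per cell cannot be told apart.

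Promoter windows from RefSeq (GRCm38.p6, 250 bases before to 50 after a start site) were matched for 6 of the 7 genes, in 9 windows, and are shown because several of these genes had like differences with stiffness. Synpo had no entry. The 3 motifs searched on both strands were the CArG box, bound by serum response factor; GGAATG, the core bound by TEAD factors; and TGANTCA, bound by AP-1. No match of one overlapped a match of another, and the motifs were chosen with the values of these genes known. GGAATG was found for 4 of the 6 genes (Flna, Flnc, Actn4 and Fblim1) against 16.6% of 27025 genes, or in 5 of 9 windows against 14.7% of 32851 windows; 2 of these, both of Flnc, overlap and hold the same match, which is counted in both. TGANTCA was found for 2 of the 6 (Actn4 and Fblim1) against 8.97% of genes, and the CArG box for none of the 6 against 1.81% of genes. In the stretches printed here the motifs are in capitals, read 5′ to 3′ on the strand of the gene, so that GGAATG on the other strand reads CATTCC. A match is a description of the letters and not a binding site. Fblim1 and Actn4 had both GGAATG and TGANTCA, and Actn1 and Synpo2l had none of the 3 in these windows. Of the 4 genes with GGAATG, Flna, Flnc and Actn4 were lower in all soft than in all stiff libraries, and Fblim1 was not. Actn1 and Synpo2l, without a match, were lower in all soft libraries too. Whether the motifs bear on these differences was not tested.
Flna, chrX:74246663-74246692, minus strand: ggcgttgtggggCATTCCaacgggaggggc
Flnc, chr6:29433140-29433169, plus strand: cgggccgggcggCATTCCtgggaggccggc
Actn4, chr7:28962483-28962560, minus strand: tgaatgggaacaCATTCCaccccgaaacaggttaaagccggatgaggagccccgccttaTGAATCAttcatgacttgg
Fblim1, chr4:141606106-141606144, minus strand: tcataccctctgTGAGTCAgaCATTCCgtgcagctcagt

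By CPM not divided by length, Actn4, Actn1 and Flna were among the highest of the tested genes, and the members ranged widely in level. Levels between genes were compared as CPM per kilobase of exon (CPM per kb), with mean ± SD over the 17 libraries. Actn4 came first, at 174.5 ± 13.5 CPM per kb. Actn1 (136.8 ± 14.9) and Flna (136.7 ± 13.5) did not differ beyond their spread. Flnc followed at 44.3 ± 9.94 and Fblim1 at 34.3 ± 2.08, Synpo2l at 4.51 ± 1.25 and Synpo at 0.458 ± 0.0976. Flnc and Fblim1 lay within 1 SD of each other on soft gels (34.7 ± 2.54 and 33.3 ± 1.53, n = 8) but not on stiff gels (52.9 ± 3.98 and 35.2 ± 2.14, n = 9). Not divided by length, Flna came first, at 1285 ± 126 CPM, since its exons are longest among these 3 (9.40 kb against 6.13 kb for Actn4 and 5.53 kb for Actn1). In plain CPM, Flna stood above 99.7% of the tested genes, Actn4 above 99.5%, Actn1 above 99.0%, Fblim1 above 88.6%, Synpo2l above 45.9% and Synpo above 18.1%. Such places per kb were not computed.

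**Figure D1:**
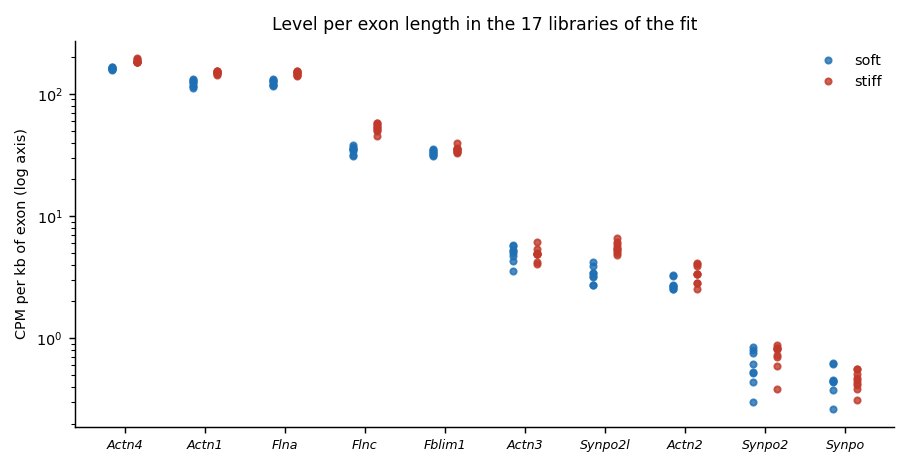
Level per exon length (CPM per kb, log axis) of the 7 members and of 3 more genes of their families, 1 point per library, for 8 soft (blue) and 9 stiff (red) libraries. Actn4, Actn1 and Flna form the top group, Flnc and Fblim1 come next, and Synpo is lowest at 0.458 CPM per kb; the soft points lie below the stiff points without overlap in Flna, Flnc, Actn1, Actn4 and Synpo2l.

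Flna, Flnc, Actn1, Actn4 and Synpo2l were lower in all 8 soft than in all 9 stiff libraries, and Synpo and Fblim1 were not. Of all tested genes, 0.871% had no overlap with soft lower. Since the members were chosen on this contrast, the counts that follow describe the choice and nothing is read from them. In edgeR's quasi-likelihood fit with Benjamini-Hochberg adjustment over all 13438 genes, 5 of the 7 were under an adjusted p of 0.05 and lower on soft gels at low AHA and 5 at mid AHA, as were 2.19% and 1.85% of tested genes. At high AHA 3 of the 7 were (Flnc, Actn4 and Synpo2l), and 0.432% of genes; this count was 5 with all 18 libraries and 1 without soft high AHA replicate 3 or without stiff high AHA replicate 3. In the average over AHA 5 of the 7 were, and 4.82% of genes. Flnc, Actn4 and Synpo2l were under the threshold at all 3 concentrations, as were 0.246% of genes. The median log2 fold change of the 7 members in the average was -0.25, and that of all tested genes was 0.00.

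**Figure D2:**
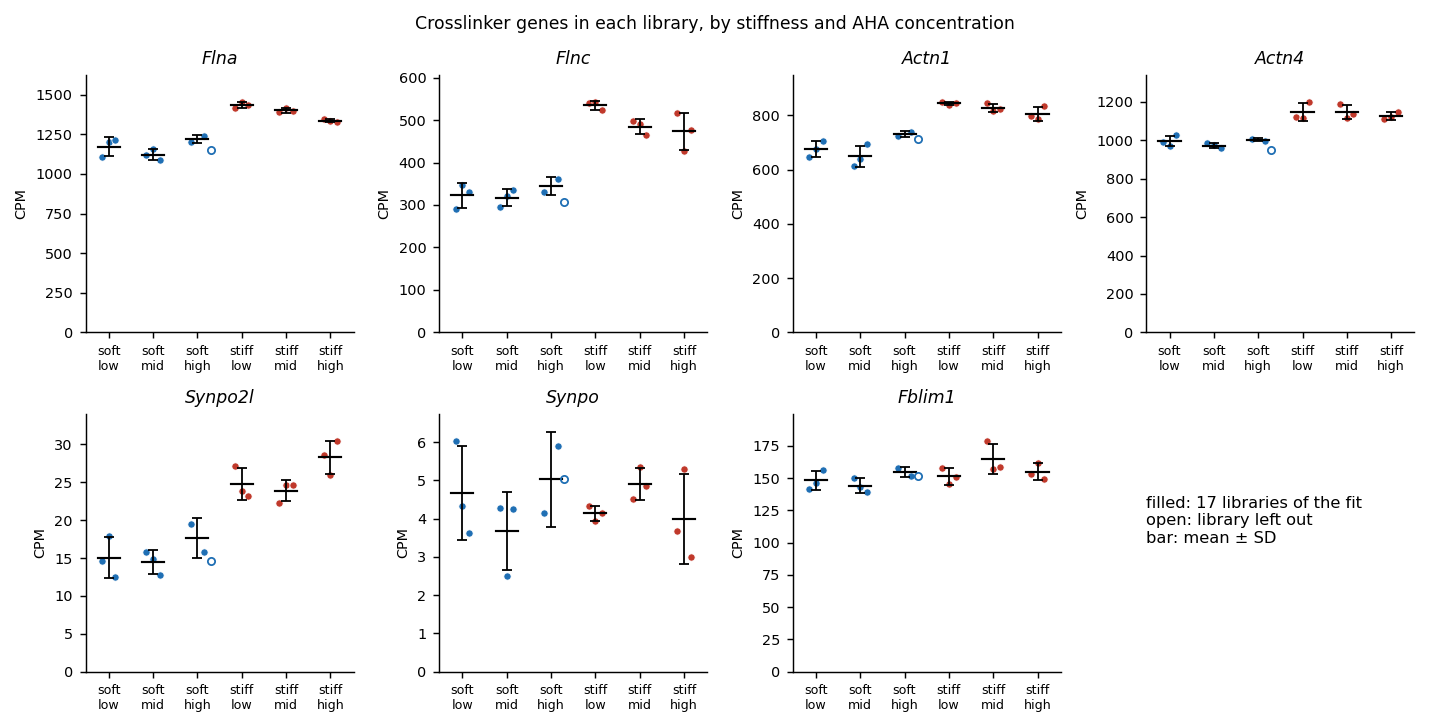
Level in CPM (axis from 0) of each member in each library, by stiffness and AHA concentration; filled points are the 17 libraries of the fit, the open point is the library left out, and bars give mean ± SD (n = 3, or 2 for soft with high AHA). For Flnc the soft libraries lie between 289.9 and 360.0 CPM and the stiff ones between 428 and 542, whereas the Fblim1 and Synpo points of the soft and stiff gels overlap at low and high AHA and over all libraries, and are lower on soft gels at mid AHA.

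Flna (chromosome X, 74223461 to 74249820, GRCm38, minus strand; ENSMUSG00000031328) encodes the filamin found in nearly all cell types. On soft gels its CPM was 1104, 1200 and 1214 at low AHA, 1085, 1122 and 1156 at mid AHA, and 1203 and 1241 at high AHA, where the library left out had 1154. On stiff gels it was 1419, 1436 and 1453 at low AHA, 1389, 1396 and 1419 at mid AHA, and 1326, 1336 and 1349 at high AHA. The groups did not overlap at any concentration, and the gap was narrowest at high AHA, where the soft mean was highest and the stiff mean lowest. Soft against stiff, the log2 fold change was -0.29 ± 0.03 (SE) at low, -0.32 ± 0.03 at mid and -0.13 ± 0.04 at high AHA, and over all concentrations the mean level was 16.2% lower on soft gels.

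Flnc (chromosome 6, 29433256 to 29461883, plus strand; ENSMUSG00000068699) encodes filamin C, which is best known from the Z-discs of muscle. It had the largest relative difference among the abundant members. On soft gels its CPM was 289.9, 331 and 347 at low AHA, 295, 320.1 and 336 at mid AHA, and 330.2 and 360.0 at high AHA, where the library left out had 308. The stiff libraries had 523, 539 and 542 at low AHA, 464, 492 and 498 at mid AHA, and 428, 477 and 516 at high AHA. Each stiff library exceeded each soft library, and the stiff libraries with high AHA were the most spread. In log2, soft against stiff differed by -0.73 ± 0.06 at low, -0.61 ± 0.06 at mid and -0.46 ± 0.07 at high AHA, and the mean level was 34.5% lower on soft gels.

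The balance of Flnc and Flna differed between the stiffnesses. Counted per kb, Flnc made up 21.8% ± 0.950 of the counts of both genes on soft gels (SD, n = 8, from 20.8% to 23.6%) and 26.3% ± 1.16 on stiff gels (n = 9, from 24.3% to 27.7%), with no overlap. The soft library left out had a Flnc share of 21.1%. These shares use the same counts as the contrast on which the genes were chosen, and they carry no test.

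Actn1 (chromosome 12, 80167547 to 80260371, minus strand; ENSMUSG00000015143) encodes the alpha-actinin of focal adhesions and stress fibres. On soft gels its CPM was 648, 674 and 707 at low AHA, 614, 638 and 693 at mid AHA, and 722 and 739 at high AHA, where the library left out had 711. On stiff gels it was 837, 846 and 848 at low AHA, 816, 825 and 845 at mid AHA, and 785, 798 and 835 at high AHA. As for Flna, the groups did not overlap and came closest at high AHA. Fitted soft against stiff log2 fold changes were -0.32 ± 0.04 at low, -0.35 ± 0.04 at mid and -0.14 ± 0.04 at high AHA, and the mean level was 17.8% lower on soft gels. Exons of Gm47766 and Gm47767 on the opposite strand covered 8.15% of the Actn1 exons, and the strand setting of the counting is not given in the sources used here, so reads of either strand in that part cannot be told apart.

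Actn4 (chromosome 7, 28893248 to 28962340, minus strand; ENSMUSG00000054808) encodes the alpha-actinin that also shuttles to the nucleus. On soft gels its CPM was 972, 990.3 and 1027 at low AHA, 958, 974 and 985 at mid AHA, and 997 and 1009 at high AHA, where the library left out had 948. The stiff libraries had 1115, 1123 and 1199 at low AHA, 1117, 1137 and 1188 at mid AHA, and 1112, 1120.0 and 1150.0 at high AHA. The gap was small and present at each concentration. Soft against stiff log2 fold changes were -0.20 ± 0.04 at low, -0.24 ± 0.04 at mid and -0.17 ± 0.04 at high AHA, and the mean level was 13.2% lower on soft gels. Exons of Capn12 on the opposite strand covered 5.16% of the Actn4 exons.

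The muscle alpha-actinins Actn2 and Actn3 were rare in these cells. Actn2 averaged 10.6 ± 1.14 CPM on soft and 12.8 ± 2.18 on stiff gels (log2 fold change -0.25 ± 0.12, edgeR adjusted p = 0.20). Actn3 averaged 14.4 ± 2.17 and 14.3 ± 1.78 CPM (log2 fold change 0.02 ± 0.11, edgeR adjusted p = 0.95). Neither passed the threshold, and their intervals of 2 SE ran from -0.49 to -0.02 and from -0.20 to 0.24. With soft high AHA replicate 2 left out in place of replicate 1, Actn2 passed (log2 fold change -0.40, edgeR adjusted p = 0.020). Per kb, Actn4 and Actn1 together made up nearly all alpha-actinin transcripts. The Actn1 share was 42.0% ± 1.44 on soft and 43.4% ± 0.665 on stiff gels, with overlapping libraries, and the Actn4 share was 55.3% ± 1.36 and 54.1% ± 0.608.

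**Figure D3:**
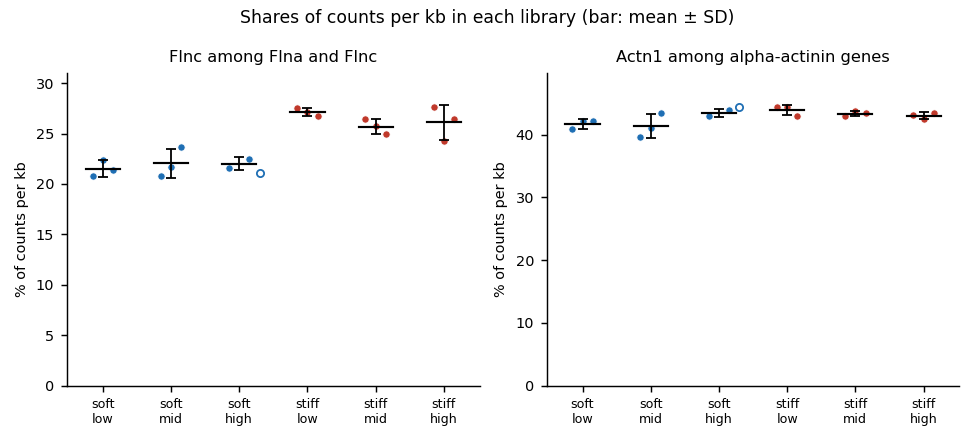
Share of counts per kb (percent, axes from 0) of Flnc among Flna and Flnc, and of Actn1 among the 4 alpha-actinins, in each library; filled points are the 17 libraries of the fit, the open point is the library left out, and bars give mean ± SD. The Flnc share was 21.8% on soft and 26.3% on stiff gels without overlap, while the Actn1 share overlapped.

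Synpo2l (chromosome 14, 20658946 to 20668354, minus strand, ENSMUSG00000039376) encodes a synaptopodin relative described in heart and skeletal muscle. At a low level, it had the largest relative difference of the 7 in the average over AHA. That log2 fold change was -0.71 ± 0.09, against -0.60 ± 0.04 for Flnc, and at low AHA both genes had -0.73. On soft gels its CPM was 12.5, 14.6 and 17.9 at low AHA, 12.7, 14.9 and 15.8 at mid AHA, and 15.8 and 19.5 at high AHA, where the library left out had 14.6. Stiff gels gave 23.2, 23.9 and 27.2 at low AHA, 22.3, 24.7 and 24.7 at mid AHA, and 26.0, 28.6 and 30.4 at high AHA. Between 69 and 186 counts per library lay behind these values. No soft library reached the lowest stiff one, and unlike in Flna, Flnc, Actn1 and Actn4 the stiff mean was highest at high AHA. The log2 fold change was -0.73 ± 0.16 at low, -0.73 ± 0.15 at mid and -0.68 ± 0.17 at high AHA, and the mean level was 39.7% lower on soft gels.

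Synpo (chromosome 18, minus strand; ENSMUSG00000043079), the synaptopodin of kidney podocytes and dendritic spines, had few reads, between 14 and 31 in a library. Its CPM ran from 2.50 to 6.02 with a median of 4.26 on soft gels (n = 8), and from 3.00 to 5.35 with a median of 4.34 on stiff gels (n = 9). Its log2 fold change was 0.16 ± 0.33 at low, -0.41 ± 0.33 at mid and 0.35 ± 0.36 at high AHA, with no common direction, and in the average 0.03 ± 0.20. Soft and stiff libraries overlapped at low and high AHA, and at mid AHA the 3 soft libraries were lower. The interval of 2 SE ran from -0.36 to 0.42, so that a difference of the size seen in Flna was not detectable at this depth. Synpo2, the third gene of that family, averaged 7.88 ± 2.50 CPM on soft and 9.58 ± 2.05 on stiff gels (log2 fold change -0.36 ± 0.14, edgeR adjusted p = 0.11) and was not called, but without stiff high AHA replicate 2 it was (-0.43, edgeR adjusted p = 0.040).

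Fblim1 (chromosome 4, 141576062 to 141606096, minus strand; ENSMUSG00000006219) encodes migfilin, which binds filamins and recruits them to cell-matrix contacts. On soft gels its CPM was 142, 147 and 156 at low AHA, 139, 143 and 150.2 at mid AHA, and 152 and 158 at high AHA, where the library left out had 152. Stiff gels gave 145, 151 and 158 at low AHA, 157, 159 and 178 at mid AHA, and 149, 153 and 162 at high AHA. Soft and stiff libraries overlapped at low and at high AHA, and at mid AHA the soft libraries were lower. The log2 fold change was -0.03 ± 0.06 at low, -0.19 ± 0.06 at mid and 0.00 ± 0.07 at high AHA. The average was -0.07 ± 0.04 with an interval of 2 SE from -0.15 to 0.00, which lies above the values of Flna, Flnc, Actn1, Actn4 and Synpo2l.

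**Figure D4:**
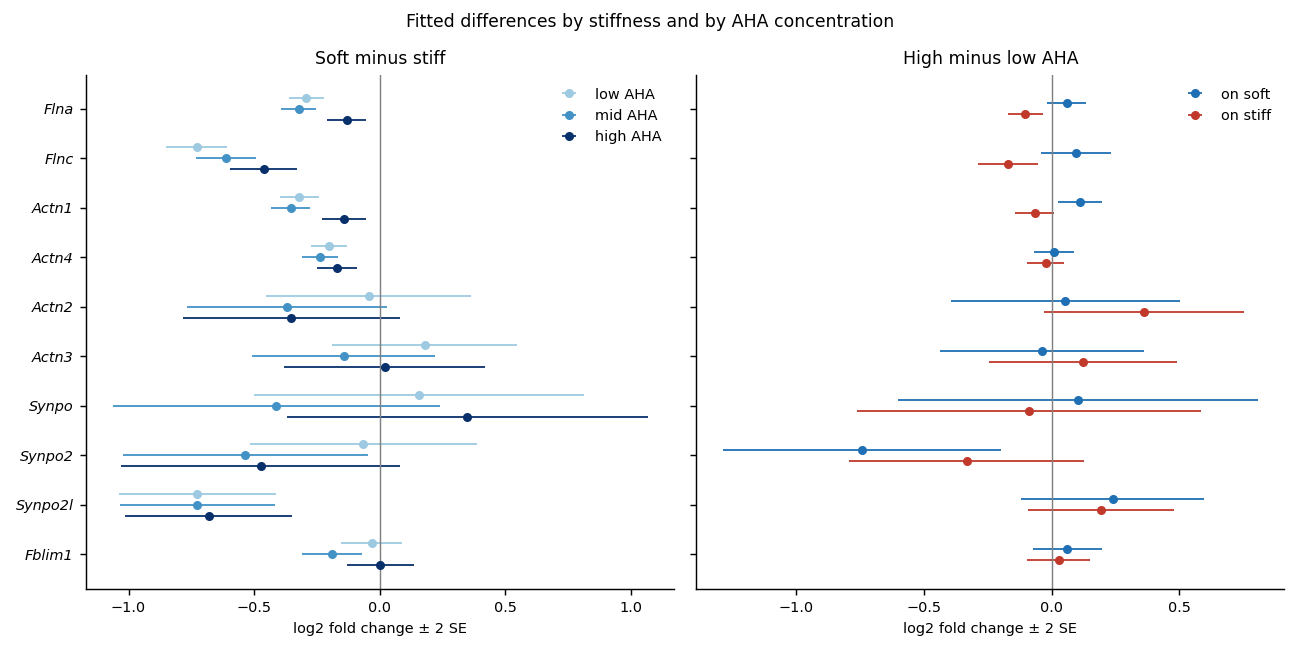
Fitted log2 fold changes ± 2 SE of the 7 members and 3 more family genes, for soft minus stiff at each AHA concentration (left) and for high minus low AHA on each stiffness (right). In the first panel Flnc and Synpo2l lie farthest to the left among the 7 members, and in the second all 7 lie above 0 on soft gels and Flna, Flnc, Actn1, Actn4 and Synpo below 0 on stiff gels, with none called.

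AHA concentration, which sets how firmly fibronectin is tethered, moved none of the 7 genes past an adjusted p of 0.05 in edgeR's fit. For high against low AHA on soft gels 0.253% of tested genes passed. At an unadjusted p under 0.05 were 1 of the 7 and 8.51% of tested genes, and the unadjusted counts below are given beside the same share. All 7 were above 0 there, with a median log2 fold change of 0.10. Actn1 had 0.11 ± 0.04 (edgeR adjusted p = 0.38), Flna 0.06 ± 0.04 (edgeR adjusted p = 0.71) and Flnc 0.10 ± 0.07 (edgeR adjusted p = 0.74). The sign of Flnc rested on the choice of soft library left out at high AHA, as it had -0.0158 with replicate 3 left out in place of replicate 1. Against mid AHA, high AHA on soft gels again had all 7 above 0 and none called (background 0.067%; at an unadjusted p under 0.05 were 2 of the 7 and 6.81% of genes), with the lowest adjusted p for Actn1 (log2 fold change 0.17 ± 0.04, edgeR adjusted p = 0.095). Without soft mid AHA replicate 3 that value was 0.22 (edgeR adjusted p = 0.0080). In mid against low AHA on soft gels all 7 were below 0 and none was called (background 0.0%, and at an unadjusted p under 0.05 none and 6.1%). These 3 comparisons share libraries and are not independent of each other, and with 2 soft libraries at high AHA those that use this group rest on few values. DESeq2 called none of the 7 in any comparison of AHA either.

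On stiff gels 2 of the 7 were above 0 and 5 below 0 for high against low AHA, and none was called (background 0.00744%, and at an unadjusted p under 0.05 were 2 of the 7 and 6.04% of genes). Flna had -0.10 ± 0.03 (edgeR adjusted p = 0.49) and Flnc -0.17 ± 0.06 (edgeR adjusted p = 0.60). Without stiff high AHA replicate 1 Flnc had -0.24 (edgeR adjusted p = 0.041). The 7 genes were not called for mid against low (background 0.0%, and at an unadjusted p under 0.05 were 1 of the 7 and 4.99% of genes) or for high against mid AHA on stiff gels (background 0.00744%, and at an unadjusted p under 0.05 none and 5.83%), nor for high against low averaged over stiffness (background 0.112%, and at an unadjusted p under 0.05 none and 8.64%).

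Whether the response to AHA differed between soft and stiff gels was fitted in edgeR as an interaction. It is built from the same soft against stiff differences with which the members were chosen, so its values and signs are a description. All 7 differences of differences were above 0, and none was called (background 0.0446%, and at an unadjusted p under 0.05 were 3 of the 7 and 6.76% of genes). Flna had 0.16 ± 0.05, Actn1 0.18 ± 0.06 and Flnc 0.27 ± 0.09 in log2. The joint fit, which asks whether the 3 soft against stiff differences are equal and which has the same limit, called none of the 7 either (background 0.0298%, and at an unadjusted p under 0.05 were 3 of the 7 and 6.71% of genes).

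Among 9219 genes with at least 10 CPM, likeness to each member was measured as the root mean square difference of the 6 centred group means of log2 CPM, as a description over 6 groups. Nearest to Flna were Vcl (0.018) and Tln1 (0.020), the genes of vinculin and talin. The 9219 genes leave out the members, and the rank of a member is its place when set among them. Set so, Actn1 ranked 5th for Flna. Nearest to Actn1 were Msn (0.021), Shroom2 (0.028) and Fkbp10 (0.028), and Flna had rank 2 when set among the 9219 genes. Nearest to Actn4 were Actb (0.012), Lasp1 (0.016) and Amotl2 (0.017), of which Actb encodes beta-actin itself.

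Flnc, Synpo2l and Synpo had fewer near neighbours. Nearest to Flnc were Itga3 (0.047), Axl (0.051) and Thbs1 (0.058), which encode an integrin subunit, a receptor tyrosine kinase and the matrix protein thrombospondin. Within 0.05 lay 1 gene for Flnc, 0 for Synpo2l and 2 for Synpo, compared with 38 for Actn1, 50 for Flna, 183 for Actn4 and 591 for Fblim1. The cut was the same for all members, so these numbers also depend on the size of a member's differences and on its count noise. No distinct pattern is read from them. Synpo itself averaged 4.36 CPM, under the 10 CPM asked of the compared genes. Nearest to Synpo2l were Csf1 (0.079), Dusp14 (0.089) and Itga3 (0.11), and Flnc ranked 12th when set among the compared genes. For Synpo (Ccdc181, Prkce and Slc27a3, 0.044 to 0.052) and Fblim1 (Pfdn6, Man2a1 and Psmb4, 0.012 to 0.015) the nearest genes were those with averaged soft against stiff log2 fold changes between -0.08 and 0.01.

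Crosslinkers outside the 3 families, a list assembled with earlier results of these data known, were called in both directions. Of 26 listed genes 25 were tested (Fscn3 had too few counts), and in the averaged contrast 2 were called higher and 6 lower on soft gels, against 3.77% and 4.82% of tested genes. Their median log2 fold change was -0.02. Among the 5 called genes with the largest change, Lima1 (an actin-bundling LIM protein) was higher at 0.29 ± 0.04 (edgeR adjusted p = 1.1e-07) and Add3 (adducin 3) at 0.26 ± 0.06 (edgeR adjusted p = 0.0024). Marcks, a membrane-bound actin-binding protein, was lower at -0.24 ± 0.04 (edgeR adjusted p = 6.8e-06), Plec (plectin) at -0.23 ± 0.02 (edgeR adjusted p = 2.0e-13) and Marcksl1, a relative of Marcks, at -0.14 ± 0.03 (edgeR adjusted p = 1.6e-05). The other called genes, Sptan1, Cttn and Fscn1, were lower by smaller amounts, and 17 were not called. At low AHA 1 of the 25 was called higher and 4 lower (0.848% and 2.19% of all tested genes), at mid AHA 1 and 6 (1.01% and 1.85%), and at high AHA 0 in either direction (0.409% and 0.432%). The count called at mid AHA, 7 in both directions, was 2 without stiff mid AHA replicate 3. It was 4 without soft mid AHA replicate 2 or without soft mid AHA replicate 3. With all 18 libraries 2 were called at high AHA.

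Partners that bind filamin, alpha-actinin or the bundles they form were called in a single direction. Of 30 listed genes 27 were tested (Myot, Filip1 and Asb2 had too few counts), and 10 were called lower and none higher on soft gels in the average, where 4.82% and 3.77% of all tested genes were. Their median log2 fold change was -0.13. Pdlim2 (-0.43 ± 0.10, edgeR adjusted p = 0.0012) and Pdlim7 (-0.38 ± 0.03, edgeR adjusted p = 2.3e-18) encode PDZ-LIM proteins that sit on alpha-actinin. Lpp (-0.41 ± 0.04, edgeR adjusted p = 1.9e-12) and Zyx (-0.39 ± 0.04, edgeR adjusted p = 1.7e-14) encode LIM proteins of the zyxin family in focal adhesions, and Palld (-0.30 ± 0.04, edgeR adjusted p = 1.7e-08) encodes palladin, which binds alpha-actinin. Csrp1, Tln1, Vcl, Vasp and Fermt2 were the remaining 5 called. The other 17 tested genes were not called, and among them Cd2ap, an adaptor that binds synaptopodin, had 0.00 ± 0.04 and Pdlim1 0.04 ± 0.08. At low, mid and high AHA 8, 7 and 1 of the 27 were called lower and none higher, the last being Pdlim7, against 2.19%, 1.85% and 0.432% of tested genes called lower. The count called at high AHA was 0 without soft high AHA replicate 3 or without stiff high AHA replicate 3. With all 18 libraries it was 4, and with soft high AHA replicate 2 left out in place of replicate 1 it was 5. Both lists were assembled with earlier results of these data known, so their counts are descriptions beside the background. The same limit holds for their adjusted p-values of soft against stiff.

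Zyx was the only gene of both lists called for high against low AHA on soft gels (of all tested genes 0.216% were called higher there). Its CPM there was 136, 139.8 and 145 at low, 147, 159 and 166 at mid, and 172 and 181 at high AHA. On stiff gels it ran from 179.9 to 226 over the 9 libraries. The log2 fold change of high against low AHA on soft gels was 0.33 ± 0.07 (edgeR adjusted p = 0.0070), but the library left out, at 142, lay among the low AHA libraries. With all 18 libraries the value was 0.23 (edgeR adjusted p = 0.33), and without soft low AHA replicate 1 or soft high AHA replicate 2 the adjusted p was 0.12 and 0.31, so this call rested on single libraries.

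**Figure D5:**
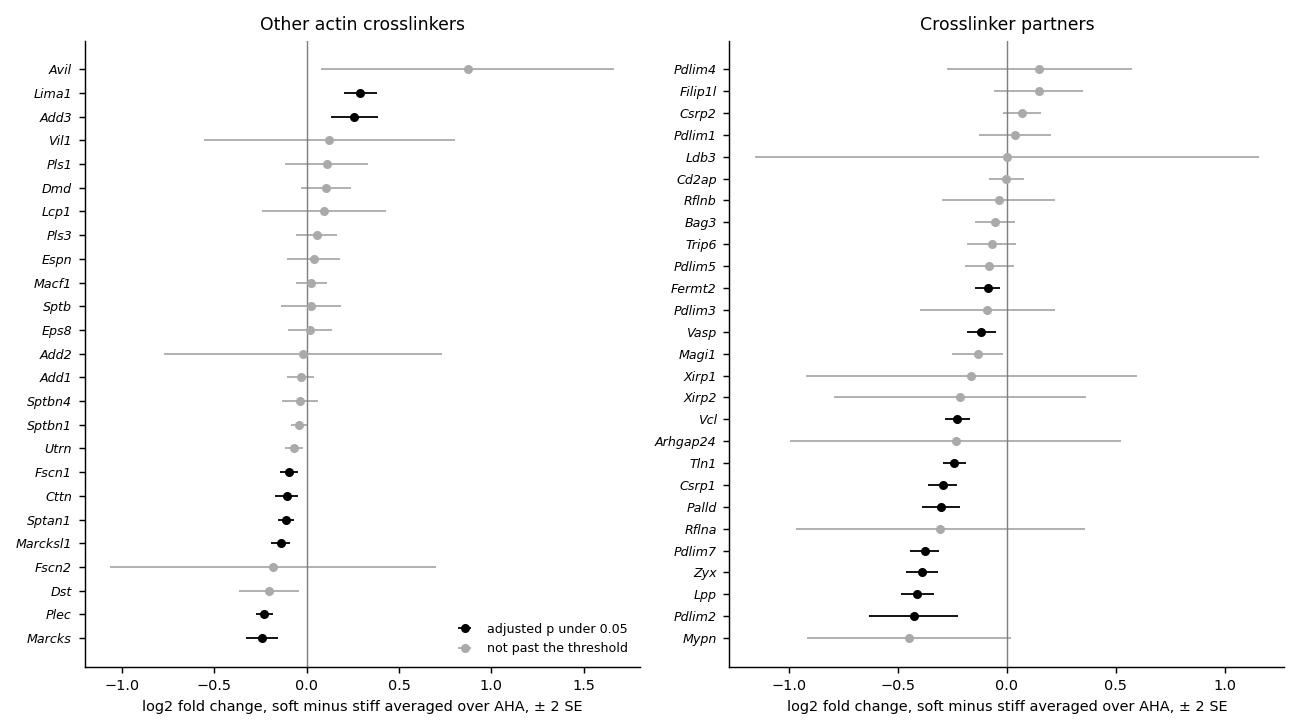
Log2 fold change ± 2 SE of soft minus stiff averaged over AHA for the tested genes of both lists, sorted by value; black marks those past an adjusted p of 0.05. Among other crosslinkers 2 black points lie above and 6 below 0, and among partners all 10 lie below 0.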

How the data were processed

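RNA of mESCs on 6 kinds of hydrogel was sequenced in 18 libraries, made with the Takara pico mammalian v2 kit. Per the labels and the study's methods, the authors trimmed reads with Trim Galore (0.4.4), aligned them with GSNAP to GRCm38 and counted them per Ensembl gene with HTSeq; its strand setting is not given in the sources used here. The deposited values are raw counts, not normalized. The table also held 92 ERCC and 7 SIRV rows and 5 summary lines, which stayed out of library sizes; the summary lines took 61.5% to 64.0% of the reads listed. Genes were named from GENCODE M21 (45143 of 46078), which places 21519 as protein-coding.

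Protein-coding genes passing filterByExpr (minimum count 10) were scaled by TMM and fitted with edgeR (4.0.16, R 4.3.3) robust quasi-likelihood, with 6 group terms over 17 libraries and 13 contrasts; p-values were adjusted by the Benjamini-Hochberg method over 13438 genes. CPM are counts scaled to library size after TMM, and the library left out was placed on that scale in a second TMM run with all 18. CPM per kb uses the union of exons. Each replicate pair differed by more than sampling noise (chi-square per degree of freedom 1.82 to 3.07). Named genes were the 7 members, 3 more family genes, the 3 genes nearest each member, the 5 called genes with the largest averaged change in each of 2 lists, and each listed gene called for high against low AHA; the other called genes, Cd2ap and Pdlim1 were named after their values were seen. A few genes that these rules would name or list are not reported here. The members and lists were chosen with earlier results of these data known. Alternatives were all 18 libraries, leaving out each library, relative log expression (RLE) and upper quartile scaling, a minimum of 2 counts in total, all annotated genes, DESeq2 (1.42.0) and a fit of only the 2 groups compared. Leaving out soft high AHA replicate 2 or 3 in place of replicate 1 was added after the data were seen.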

Additional observations from a re-analysis of the deposited data

How the results depend on the processing

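The count of members called for soft against stiff describes the choice of members. At high AHA it was 3 with the 17 libraries, 5 with all 18 libraries and 5 when soft high AHA replicate 2 or replicate 3 was left out in place of replicate 1, and it ran from 1 to 3 when 1 of the 17 was left out; the cause was not tested. In the comparisons of AHA the count of members called was 0 under each alternative, except that leaving out 1 library gave between 0 and 1 for high against mid AHA on soft gels and for high against low AHA on stiff gels. The log2 fold change of Flnc for high against low AHA on soft gels went from 0.096 to -0.0158 with soft high AHA replicate 3 left out in place of replicate 1. That of Actn3 for soft against stiff, 0.019, was -0.00967 with all 18 libraries, -0.0200 and -0.0308 with soft high AHA replicate 2 or 3 left out in place of replicate 1, and between -0.0506 and 0.0718 when 1 library was left out. For soft against stiff, Actn2 was called with soft high AHA replicate 2 left out in place of replicate 1 (-0.40, edgeR adjusted p = 0.020), and Synpo2 without stiff high AHA replicate 2 (-0.43, edgeR adjusted p = 0.040).

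Counts over all genes moved more. For soft against stiff at high AHA, 113 genes were called with the 17 libraries, 341 with all 18, 384 and 257 with soft high AHA replicate 2 or 3 left out in place of replicate 1, and 42 to 117 when 1 library was left out. Leaving out 1 library gave 245 to 423 genes at low AHA (408 with 17 libraries), 222 to 424 at mid AHA (384), and 2 to 69 for high against low AHA on soft gels (34). For high against low AHA averaged over stiffness 15 genes were called, and 5 to 65 over the alternatives, with 46 by DESeq2. For the interaction 6 were called, and 2 to 19 over the alternatives; for the joint test 4, and 2 to 12. For high against mid AHA on soft gels 9 were called, and 4 to 16 over the alternatives. High against low AHA on stiff gels had 1, and 0 to 15 over the alternatives; high against mid AHA on stiff gels had 1, and 0 to 10; mid against low AHA had 0 on both stiffnesses, and up to 8 on soft and 1 on stiff gels. Other crosslinkers called at high AHA were 0 to 2 over the alternatives and partners 0 to 5; other crosslinkers called at mid AHA were 2 to 7. The call of Zyx for high against low AHA on soft gels was lost in 5 of 26 alternatives.

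The labels share no replicate numbers. No paired analysis was possible because the replicates were numbered in accession order. Depth limits Synpo, with 14 to 31 counts in a library.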
